A study of Homo sapiens with 17 samples.

Results

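DLL4, HEY1 and BHLHE40 are 3 genes picked by symbol from 1400 genes listed in 4 tables of the authors' own comparisons in PC3 cells. DLL4 and HEY1 belong to the Notch pathway, whereas BHLHE40 encodes a repressor related to HEY1 and is not counted here as a Notch gene. All 3 were picked because of the values in these tables. The ratios, scores and listings of these 3 genes are therefore a description and carry no test. PC3 is an androgen-independent human cell line established from a bone metastasis of a prostate carcinoma. Early-passage PC3 cells were taken 7 days after infection with a virus that carried a short hairpin RNA (shRNA). The knockdown groups were MED25A and MED25B, a pair of lentiviral shRNAs against different sequences of MED25, and ETV4A and ETV4B, a pair of retroviral shRNAs against ETV4, with 3 libraries each. Their controls were 3 libraries of PC3 cells with a lentivirus for a luciferase shRNA and 2 libraries with a retrovirus for a control shRNA, whereas the series design text speaks of an empty vector. All 17 libraries therefore came from infected cells, and nothing in the labels says whether the libraries of a group came from separate cultures. The tables hold ratios only, so neither the labelled cell line nor the level of any gene could be checked against defining markers.

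Notch signalling passes between touching cells. A ligand on the sending cell, such as DLL4, binds a Notch receptor on its neighbour, proteases including the gamma-secretase complex cut the receptor, and the freed intracellular part joins the DNA-binding protein RBPJ to switch on target genes. HEY1 is among the best known of these targets and encodes a basic helix-loop-helix (bHLH) repressor, and DLL4 is best known for restraining sprouting in growing blood vessels. BHLHE40, also called DEC1, is a bHLH repressor with the same Orange domain as the HES and HEY proteins. It binds the palindromic E-box, damps the circadian clock and is induced by hypoxia and other stresses. MED25 is a subunit of Mediator, the complex that links transcription factors to RNA polymerase II, and ETV4 is an ETS-family transcription factor that can bind MED25.

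The promoters of DLL4 and BHLHE40 are shown because these genes were listed with both MED25 shRNAs and no ETV4 shRNA. That of HES1, the classic RBPJ-bound Notch target, is shown because HES1 was listed with 1 ETV4 shRNA. The promoter of HEY1 is not reported here. The sequences are from RefSeq on GRCh38.p14, a later build than the hg19 of the authors' alignment. Each runs 5′ to 3′ on the strand of the gene, from 250 bases before the start to 50 bases after it. In the first and second sequence capitals mark the ETS core GGAA on either strand, the E-box CACGTG and the E-box variant CACGCG. In the third sequence capitals mark the RBPJ site TGGGAA and the ETS core, which is part of the RBPJ site.
DLL4, chr15:40929090-40929389, plus strand: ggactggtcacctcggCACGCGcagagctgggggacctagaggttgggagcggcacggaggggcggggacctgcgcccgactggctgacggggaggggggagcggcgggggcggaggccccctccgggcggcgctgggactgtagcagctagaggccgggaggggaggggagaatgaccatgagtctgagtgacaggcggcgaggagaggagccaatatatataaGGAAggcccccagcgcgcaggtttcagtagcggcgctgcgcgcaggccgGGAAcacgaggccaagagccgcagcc
BHLHE40, chr3:4979187-4979486, plus strand: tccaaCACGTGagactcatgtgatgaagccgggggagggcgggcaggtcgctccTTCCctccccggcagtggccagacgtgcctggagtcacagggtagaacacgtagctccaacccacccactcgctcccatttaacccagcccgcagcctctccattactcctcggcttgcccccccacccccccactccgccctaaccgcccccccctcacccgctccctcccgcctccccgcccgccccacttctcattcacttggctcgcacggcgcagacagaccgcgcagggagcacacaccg
HES1, chr3:194135898-194136197, plus strand: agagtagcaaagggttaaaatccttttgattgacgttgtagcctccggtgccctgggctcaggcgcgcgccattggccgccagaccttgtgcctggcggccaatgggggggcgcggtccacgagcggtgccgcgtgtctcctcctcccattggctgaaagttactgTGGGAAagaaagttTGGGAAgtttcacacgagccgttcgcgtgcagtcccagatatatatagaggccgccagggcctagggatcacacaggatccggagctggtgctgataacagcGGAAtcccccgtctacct

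The DLL4 window held 2 GGAA cores, at 25 bases before the start and at base 25 after it, and 1 CACGCG at 234 bases before the start. The BHLHE40 window held 1 GGAA core on the opposite strand, at 196 bases before the start, and 1 CACGTG at 245 bases before it. In the HES1 window, TGGGAA occurred at 84 and at 70 bases before the start, and a further GGAA lay at base 33 after it. The same window held 2 CACGCG, left in lower case, at 120 and 47 bases before the start. Of the 35116 promoters in the RefSeq table, 95.5% held a GGAA, so that this core hardly sets any promoter apart. The other motifs were rarer, with CACGTG in 7.26%, CACGCG in 11.4% and TGGGAA in 24.0% of promoters. The longer ETS core CCGGAA, found in 17.2% of promoters, was in none of the 3 windows, and TGGGAA was in neither the DLL4 nor the BHLHE40 window. These are matches of letters in a short window, searched on both strands, and say nothing of binding.

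The targeted transcripts were lower in their own tables. MED25 RNA amounted to 51.6% of control with MED25A and 30.5% with MED25B, and ETV4 RNA to 26.1% with ETV4A and 15.8% with ETV4B, computed from the log2 ratios in the authors' deposited tables. All values here are log2 ratios of knockdown over control. The ratios in both MED25 tables are deposited the other way round and were turned, and the sign of the targeted genes helped to set this direction. The tables list 786, 374, 495 and 98 genes for MED25A, MED25B, ETV4A and ETV4B. No listed gene had risen, and the smallest decrease in a table was 1.5-fold. A gene that is not listed may have risen, may not have changed or may have missed the authors' minimum. The authors give no error per gene and library values were not analysed here, so the spread between replicates cannot be given for any ratio.

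DLL4 (ENSG00000128917, chromosome 15) was lower with both MED25 shRNAs and was listed with neither ETV4 shRNA. Its log2 ratio was −1.43 with MED25A, or 37.2% of control, in the authors' deposited table. With MED25B it was −1.08, or 47.4% of control, in the authors' deposited table. The decrease was therefore smaller with MED25B, by 1.27-fold, although MED25B left less of the MED25 transcript. In RNA from a whole culture, less RNA per cell and fewer cells with the RNA cannot be told apart, for this gene and the others. Ranked from the largest decrease, DLL4 was number 42 of 786 with MED25A and number 55 of 374 with MED25B.

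HEY1 (ENSG00000164683, chromosome 8) was the only one of the 3 genes listed with every shRNA. In the authors' deposited tables its log2 ratio was −1.36 with MED25A and −1.27 with MED25B, or 39.1% and 41.5% of control. It was −0.79 with ETV4A and −0.93 with ETV4B in the authors' deposited tables, or 58.0% and 52.4% of control. The shRNAs of a target differed by 1.06-fold for MED25 and by 1.11-fold for ETV4. The mean of the log2 ratios was −1.31 over the MED25 shRNAs and −0.86 over the ETV4 shRNAs, a gap of −0.45. As the shRNAs of a target share their control libraries, the differences between them do not measure the error of this gap. This gap was not tested, and both the virus and the control libraries differ between the targets. HEY1 was number 57 of 786 and number 33 of 374 by decrease in the MED25 tables, but number 250 of 495, close to the middle, with ETV4A and number 29 of 98 with ETV4B.

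BHLHE40 (ENSG00000134107, chromosome 3) was, like DLL4, lower with both MED25 shRNAs and listed with neither ETV4 shRNA. Its log2 ratio was −1.21 with MED25A, or 43.1% of control, in the authors' deposited table. With MED25B it was −1.35, or 39.3% of control, in the authors' deposited table. Here the decrease was slightly larger with MED25B, by 1.10-fold, the opposite order to both DLL4 and HEY1. By size of decrease BHLHE40 was number 91 of 786 and number 28 of 374. GENCODE release 29 places the antisense gene BHLHE40-AS1 across part of BHLHE40 on the other strand. Whether the counting used strand is not stated, so reads of the pair may not be separated. BHLHE40-AS1 itself was in none of the tables. No annotated gene overlaps DLL4 or HEY1.

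**Figure D1:**
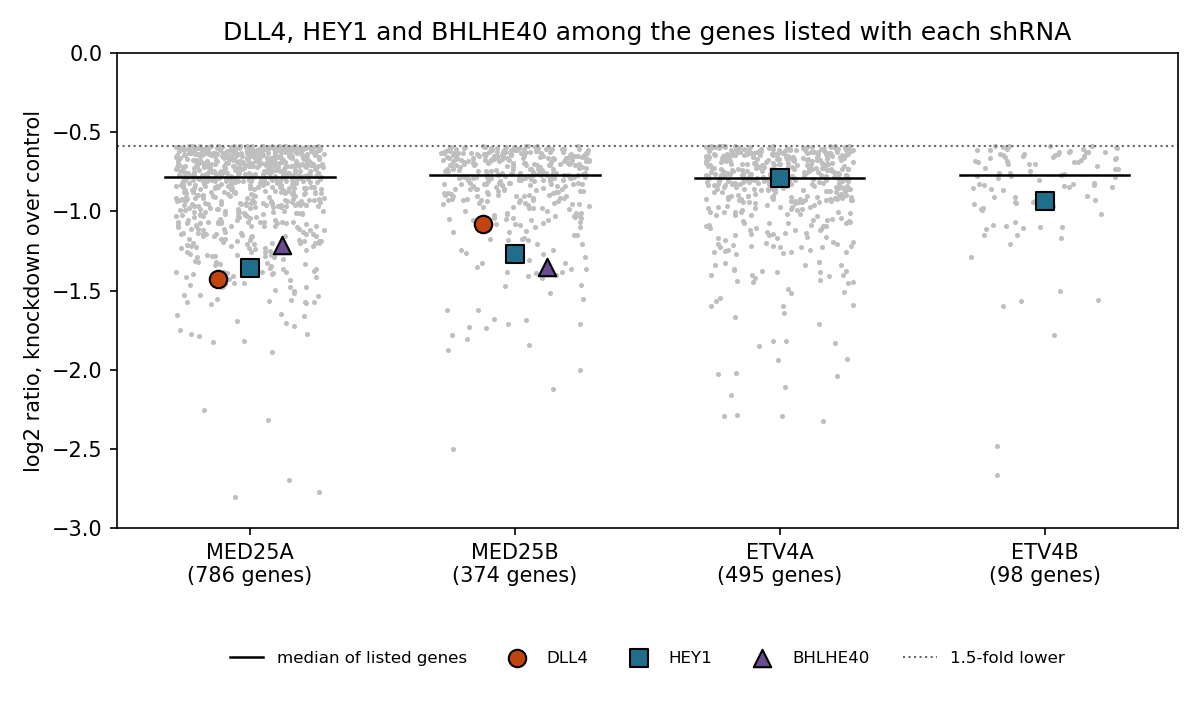
Log2 ratio of knockdown over control (y axis) for every gene in each of the 4 tables (grey points, spread sideways at random), with DLL4, HEY1 and BHLHE40 as coloured symbols, the median of the listed genes as a line and the smallest listed decrease near the dotted line. With MED25A and B the 3 genes lie between −1.08 and −1.43, below the medians of −0.78 and −0.77, while HEY1 lies at the median of −0.79 with ETV4A.

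The 3 genes thus changed order between the MED25 shRNAs. With MED25A the largest decrease was that of DLL4, then HEY1, then BHLHE40, and with MED25B the order was BHLHE40, HEY1, DLL4. Averaged over both shRNAs, the genes were close together, at 42.0% of control for DLL4, 40.3% for HEY1 and 41.1% for BHLHE40. All 3 were lowered at least 2-fold with either MED25 shRNA, as were 24.0% of the genes listed with MED25A and 20.1% of those listed with MED25B. HEY1 was not lowered 2-fold with either ETV4 shRNA, as 23.2% and 20.4% of the genes in those tables were. Of the 153 genes listed with both MED25 shRNAs, 18.3% were also listed with at least 1 ETV4 shRNA and 6.54% with both. HEY1 is among these 10 genes and DLL4 and BHLHE40 are not. Since the genes were picked for these listings, nothing follows from the count of 1 in 3. Both shRNAs against a target were set against the same control libraries and are not independent of each other.

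The authors' adjusted p is deposited as a score whose scale is not given, with a minimum just above 20 in each table, and it ordered the genes differently from the ratio. In the authors' deposited table for MED25A the score was 310.4 for BHLHE40, 87.0 for HEY1 and 59.1 for DLL4. For MED25B it was 391.4 for BHLHE40, 85.1 for HEY1 and 43.5 for DLL4 in the authors' deposited table. BHLHE40 was thus number 23 of 786 and number 12 of 374 by score, whereas DLL4 was number 442 and number 255, below the middle of both tables. HEY1 scored 114.3 with ETV4A and 146.4 with ETV4B in the authors' deposited tables, numbers 125 of 495 and 22 of 98. HEY1 therefore had its higher scores where its decreases were smaller, but scores of different tables may not be comparable.

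The scores also differed among genes of like ratio, a comparison chosen after the values were seen. With MED25A, 64 other genes had a log2 ratio within 0.1 of BHLHE40, and 2 of them scored higher. With MED25B, 3 of 14 such genes scored higher than BHLHE40. Around DLL4 the picture was the reverse, with 22 of 32 neighbouring genes scoring higher with MED25A and 35 of 37 with MED25B. Around HEY1, 17 of 38 genes scored higher with MED25A, 14 of 16 with MED25B, 32 of 185 with ETV4A and 6 of 20 with ETV4B. The decrease of DLL4 with MED25B is thus among those that the authors' test ranked low for its size.

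**Figure D2:**
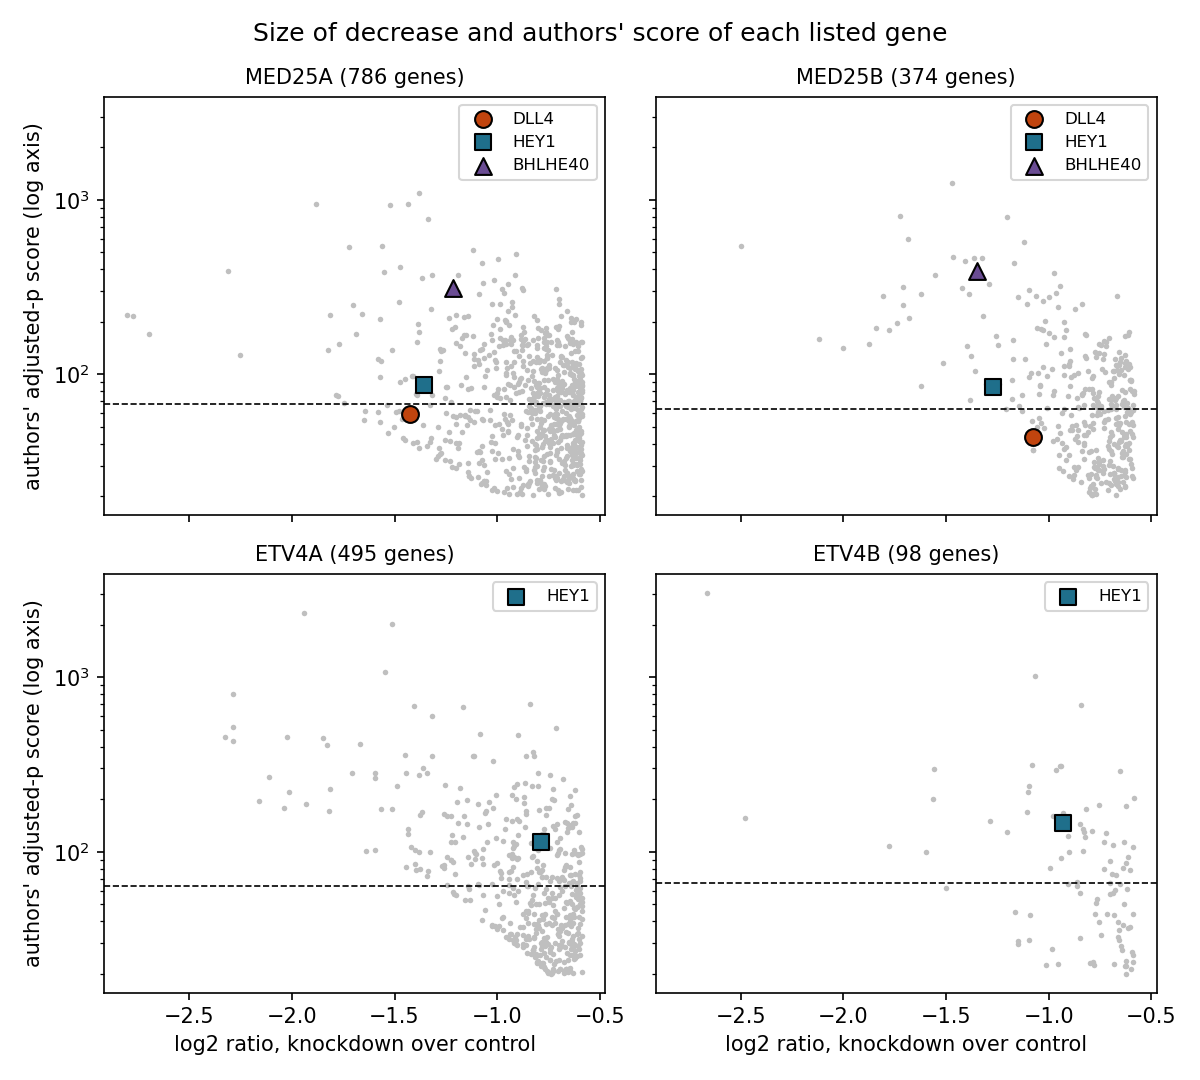
Log2 ratio of knockdown over control (x axis) against the authors' adjusted-p score (y axis, log scale) for each listed gene (grey), 1 panel per shRNA, with DLL4, HEY1 and BHLHE40 in colour and the median score as a dashed line. In the MED25 panels BHLHE40 lies high, at 310.4 and 391.4, HEY1 just above the median and DLL4 below it, at 59.1 and 43.5.

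Of 46 ligands, receptors, proteases and modifiers of the Notch machinery, DLL4 included, 4 were in any table, or 8.70%, and no Notch receptor, no Fringe gene and neither RBPJ nor a MAML coactivator was among them. By comparison, 6.14% of the 19951 protein-coding genes of GENCODE release 29 were listed in any table, a share that counts genes silent in PC3 cells. With MED25A, 3 of 46 were listed, with a median of −0.87 against −0.78 over the whole table, and with MED25B DLL4 was the 1 gene listed. With ETV4A, 2 of 46 were listed, with a median of −0.76 against −0.79, and with ETV4B none. Of all coding genes, 3.44% were listed with MED25A, 1.61% with MED25B, 2.17% with ETV4A and 0.456% with ETV4B, so the counts for this list were of the order found for coding genes in general. As silent genes count in these shares, a higher share is not read as particular to a list. All 7 gene lists were drawn up with earlier results of these data known. Leaving out any of the 3 genes therefore makes no share independent of the choice.

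A second Notch ligand, JAG1, was at −0.87 with MED25A and −0.70 with ETV4A in the authors' deposited tables, and was listed with neither MED25B nor ETV4B. JAG1 overlaps 2 annotated genes, 1 of them on the other strand, so its values carry the same doubt as those of BHLHE40. DTX3, of the Deltex family of Notch-modifying ubiquitin ligases, was at −0.80 with MED25A in the authors' deposited table. APH1B, a subunit of gamma-secretase, was at −0.83 with ETV4A in the authors' deposited table. DLL4 was the gene of this list with the largest decrease, and the 1 that passed 2-fold, but it was picked for its values. Without DLL4, 3 of the other 45 genes were in any table.

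Of 20 genes known as Notch targets, HEY1 included, 7 were in any table, or 35.0% against 6.14% of all coding genes, with 4 for each MED25 shRNA, 2 for ETV4A and 1 for ETV4B. Their medians were −0.82 and −0.77 with the MED25 shRNAs, against −0.78 and −0.77 for the whole tables, and −0.70 and −0.66 without HEY1. HEY1 was picked for its values, and without it 6 of the other 19 genes were in any table. The list, too, was drawn up with earlier results known, so this share is not independent either. Without HEY1, the genes listed numbered 3 with each MED25 shRNA, 1 with ETV4A and 0 with ETV4B. HES1 was at −0.96 with ETV4A in the authors' deposited table, or 51.5% of control, a larger decrease than that of HEY1 with the same shRNA. HES1 was listed with none of the other shRNAs. HES2, a less studied HES-family gene, was at −0.63 with MED25B in the authors' deposited table. The growth regulator MYC was at −0.70 with MED25A and −0.87 with MED25B in the authors' deposited tables. Cyclin D1 (CCND1), which drives entry into the cell cycle, was at −0.94 and the transcription factor SOX9 at −0.70 with MED25A in the authors' deposited table. EPHB2, a receptor for membrane-bound ephrins, was at −0.66 with MED25B in the authors' deposited table. Many of these genes answer to other pathways as well. HEY1 alone among the 20 was listed with shRNAs of both targets.

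HEY1 and BHLHE40 belong to a group of 17 HES, HEY, BHLHE and ID genes, of which 6 were listed in any table, or 35.3% against 6.14% of all coding genes. With each MED25 shRNA 4 of the 17 were listed, or 23.5% against 3.44% and 1.61%, with a median of −1.15 against −0.78 over the table for MED25A, and of −1.15 against −0.77 for MED25B. HEY1, BHLHE40 and ID2 were lowered at least 2-fold with each of these shRNAs. Both HEY1 and BHLHE40 were picked for their values, so these counts and medians are not independent of the choice. Nor are those without both, as the list was also drawn up with earlier results known. Without both, 4 of the other 15 genes were listed in any table, and the medians were −0.91 with MED25A and −0.83 with MED25B over 2 genes each. ID2, which lacks a basic region and ties up other helix-loop-helix proteins, was at −1.09 with MED25A and −1.03 with MED25B in the authors' deposited tables, or 47.0% and 49.0% of control. Its score of 288.5 and 262.0 in the authors' deposited tables was high, like that of BHLHE40. ID2 also has an annotated antisense gene, ID2-AS1, across it. HES6, known in mouse to counteract HES1, was at −0.74 with MED25A in the authors' deposited table. The sister genes HEY2, HEYL and BHLHE41 were listed nowhere.

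**Figure D3:**
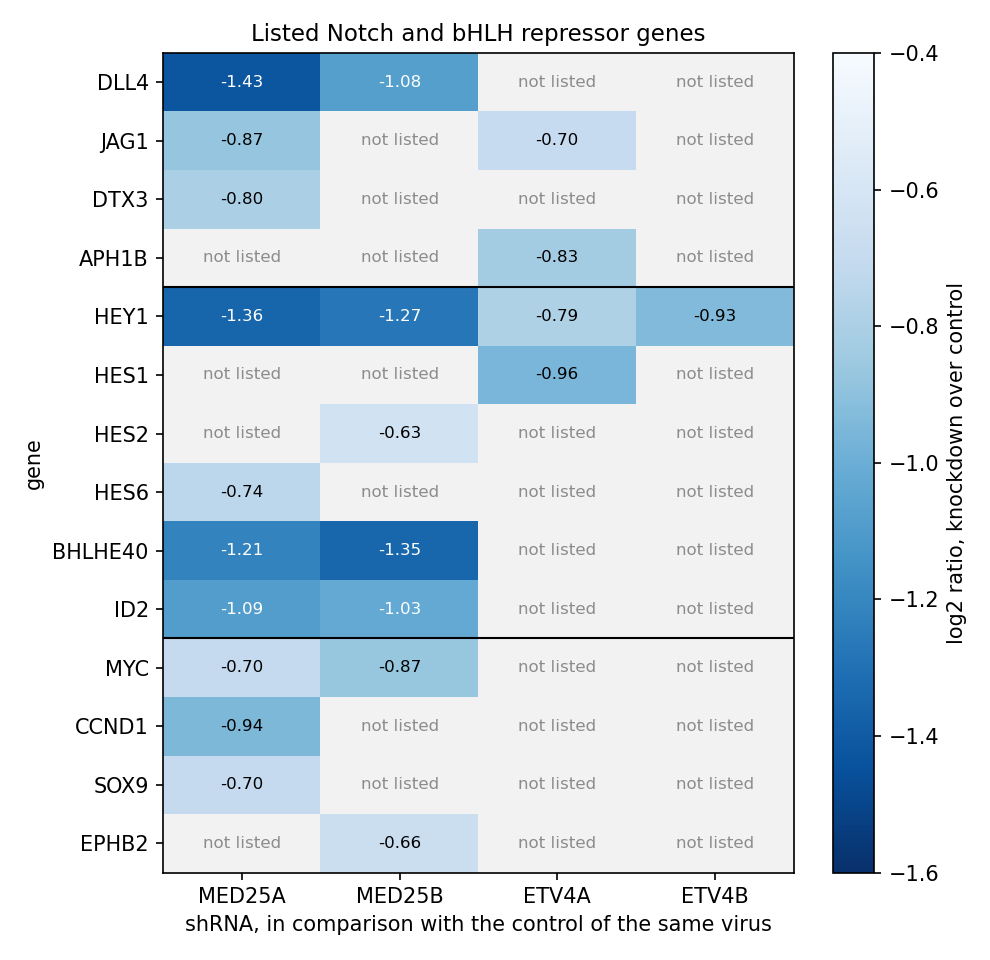
Log2 ratio of knockdown over control (colour and number) for the 14 genes of the Notch machinery, Notch target and HES, HEY, BHLHE and ID lists that were in any table (rows), with 1 column per shRNA and grey where a gene was not listed. Filled cells run across the row of HEY1 alone, and the cells lowered at least 2-fold are those of DLL4, HEY1, BHLHE40 and ID2 in the MED25 columns.

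Among 64 other bHLH factors, 4 were listed in any table, or 6.25%, close to the 6.14% of all coding genes. TFEC, of the MITF family, was at −1.14 with ETV4A and −1.16 with ETV4B, and MITF itself at −0.83 with ETV4A, in the authors' deposited tables. SIM2, of the bHLH-PAS family, was at −0.77 with MED25A in the authors' deposited table, and MYC, given above, was the remaining gene. Apart from HEY1, no bHLH or ID gene of either list was in tables of both targets.

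BHLHE40 is also a clock gene, and 4 of 26 clock genes were listed with MED25A and 2 with MED25B, or 15.4% and 7.69% against 3.44% and 1.61% of all coding genes. Their medians of −0.98 and −1.02, against −0.78 and −0.77 for the whole tables, include BHLHE40, which was picked for its values. Without it, the median was −0.74 with MED25A over 3 genes, and NR1D1 was the 1 gene left with MED25B. This list was also drawn up with earlier results known, so its shares are not independent of the choice. No clock gene of the list was listed with an ETV4 shRNA. The clock repressor NR1D1, also called REV-ERB alpha, was at −1.45 with MED25A and −0.68 with MED25B in the authors' deposited tables. Its decrease was larger with MED25A, as for DLL4, and NR1D1 overlaps THRA on the other strand, so its values carry the same doubt as those of BHLHE40. PER2, a core repressor of the clock, was at −0.71 and TIMELESS, better known in DNA replication, at −0.74 with MED25A in the authors' deposited table.

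Of 30 hypoxia-induced genes, BHLHE40 included, 4 were listed in any table, or 13.3% against 6.14% of all coding genes, and no other gene of the list shared the pattern of BHLHE40. BHLHE40 was picked for its values, and without it 3 of the other 29 genes were in any table. The same limit holds for this list, which was drawn up with earlier results known. The secreted hormone gene STC2 was at −0.78 and the mTORC1 inhibitor DDIT4 at −0.86 with ETV4A in the authors' deposited table. The classical hypoxia markers CA9, VEGFA and NDRG1 were, like most of the list, not listed, which does not show that they were unchanged.

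DLL4 and HEY1 are also on a list of 22 genes of vessel sprouting, of which 10 were in any table, or 45.5% against 6.14% of all coding genes. Both were picked for their listings, and without them 8 of the other 20 genes were in any table. The list itself was drawn up with earlier results of these data known, so leaving both out does not make the shares independent of the choice. With both included, the genes listed numbered 6 with MED25A, 4 with MED25B, 5 with ETV4A and 3 with ETV4B. These were 27.3%, 18.2%, 22.7% and 13.6% of the list, against 3.44%, 1.61%, 2.17% and 0.456% of all coding genes. Without both, the genes listed numbered 4, 2, 4 and 2. The VEGF receptor FLT1 was at −1.15 with ETV4A and −1.29 with ETV4B, and the second VEGF receptor KDR at −0.90 with ETV4A, in the authors' deposited tables. ESM1, a marker of tip cells, was at −1.78 with MED25B, −0.87 with ETV4A and −1.57 with ETV4B in the authors' deposited tables. The growth factors PGF, PDGFB and VEGFC were at −1.07, −0.75 and −0.60 with MED25A in the authors' deposited table. NRP2, a coreceptor for VEGF and semaphorins, was at −0.96 with MED25B in the authors' deposited table. FLT1 and KDR were thus listed with ETV4 shRNAs, where DLL4 was not. Of 10 endothelial marker genes 2 were listed, KDR and ESAM, the second at −0.72 with MED25A, in the authors' deposited tables. Of 8 fibroblast markers 2 were listed, PDGFRA at −0.62 with MED25A and COL3A1 at −0.73 with ETV4A, in the authors' deposited tables, and of 6 leukocyte markers 0. The part of other cell types in these ratios was not tested.

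The genes most like each of the 3 were those at the smallest Euclidean distance of log2 ratios, among genes listed in exactly the same tables. For HEY1, with 4 tables and 9 candidates, the nearest was the small GTPase gene RASL11A, at −1.47, −1.29, −0.87 and −0.69 with MED25A, MED25B, ETV4A and ETV4B in the authors' deposited tables, a distance of 0.28. Next came the kinase gene CDK14 at 0.70 and the heparan sulfate proteoglycan SDC1 at 0.71. Of the 10 genes listed with every shRNA, 9 had a lower mean log2 ratio with MED25 than with ETV4, so that the order of targets seen for HEY1 was the usual one. The spread of HEY1 over the 4 tables, 0.57, was the third smallest of the 10.

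**Figure D4:**
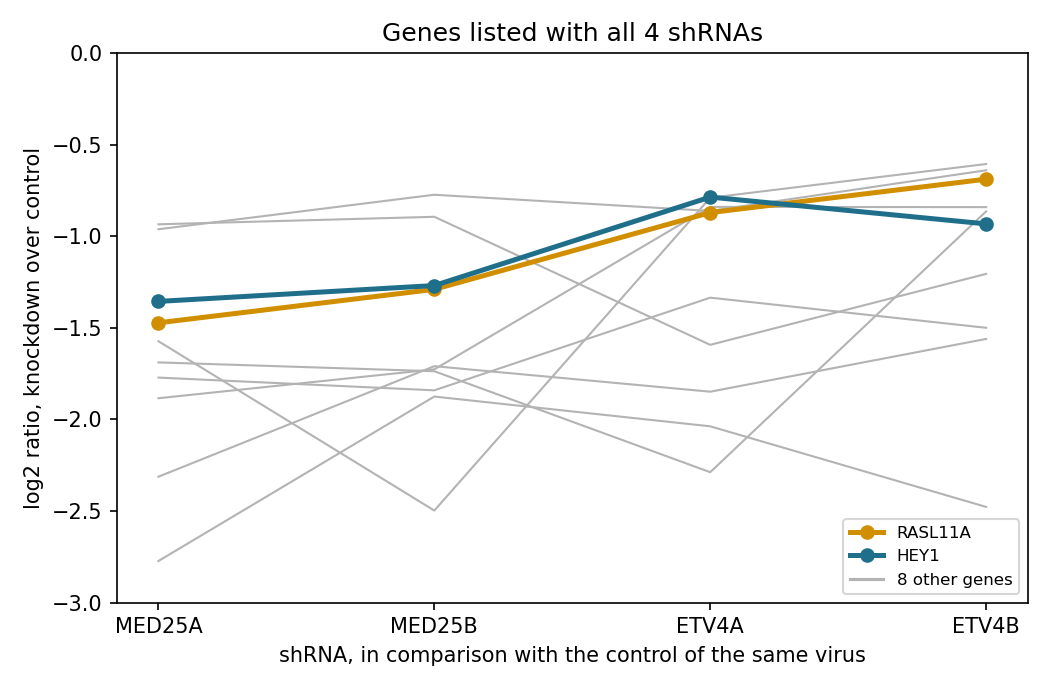
Log2 ratio of knockdown over control (y axis) with each shRNA (x axis) for the 10 genes listed in every table, with 1 line per gene. HEY1 and its nearest neighbour RASL11A lie close together, between −1.27 and −1.47 with the MED25 shRNAs and between −0.69 and −0.93 with the ETV4 shRNAs, where their lines cross.

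For DLL4 and BHLHE40 there were 124 candidates each, listed with both MED25 shRNAs and no ETV4 shRNA. The nearest to DLL4 were C6orf141 at a distance of 0.12, the mesenchymal transcription factor SNAI1 at 0.15, AC009041.1 at 0.15, the insulin receptor substrate IRS2 at 0.16 and HHIP, which binds hedgehog ligands, at 0.16. The nearest to BHLHE40 were EFNB1, a membrane-bound ephrin, at 0.20, the transporter gene SLC35F2 at 0.21, AP002478.2 at 0.23, SNAI1 at 0.28 and AC009041.1 at 0.31. DLL4 and BHLHE40 lay 0.34 apart, which placed BHLHE40 as number 11 for DLL4 and DLL4 as number 7 for BHLHE40. SNAI1 was at −1.28 with MED25A and, like DLL4, at −1.08 with MED25B in the authors' deposited tables. Distances over 2 tables that share their controls describe likeness only loosely.

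Of the 30 protein-coding genes nearest in order to the 3 genes, 3 were listed in any table, against 6.14% of all coding genes. For BHLHE40, with 5 neighbours on each side, 0 of 10 were in any table. For HEY1, 2 of 10 were listed, IL7 at −0.77 with ETV4A and ZC2HC1A, deposited under its older symbol FAM164A, at −0.66 with MED25A in the authors' deposited tables. For DLL4, 1 of 10 was listed, and it was the adjacent coding gene CHAC1, which encodes a glutathione-degrading enzyme of the stress response. CHAC1 was at −1.65 with MED25A and −2.11 with ETV4A in the authors' deposited tables. It therefore shared MED25A with DLL4, but not MED25B, and was listed with an ETV4 shRNA where DLL4 was not.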

How the data were processed

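The 17 PC3 libraries were made from total RNA (Qiagen RNeasy) by Illumina's own procedure, per the labels' protocols. The submitters' processing notes name Novoalign 3.08.02 and the hg19 build. How reads were counted, scaled and tested, and with which annotation, is not stated, and the depth of each library is unknown. Per the file headers, the authors deposited a log2 ratio and an adjusted p for each gene. The adjusted p, on a scale the authors do not state, was treated as a score and used to rank genes. Directions were read from library numbers in the headers and the sign of the targeted genes.

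Genes were found by symbol, and 1350 of 1400 identifiers matched GENCODE release 29. The 3 genes and the gene lists were chosen with earlier results of these data known. Genes named are the 3 genes, the targets, every listed member of the 7 gene lists and 3 marker lists apart from 1 that is not reported here, the nearest 3 genes to HEY1 and 5 to DLL4 and BHLHE40, and listed chromosomal neighbours, the last chosen after their values were seen. As only ratios were used, no test was made and no list was tested. Promoter sequences are shown for DLL4, BHLHE40 and HES1 only, and that of HEY1 is not reported here. Alternatives changed the fold minimum, the score minimum, the ranking, gene types, symbols, distance and promoter window. Motif counting and the distance search were tested on simulated data. Python 3.11.15 was used with pandas 2.3.3, numpy 2.4.6 and matplotlib 3.10.9.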

Additional observations from a re-analysis of the deposited data

How the results depend on the processing

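No paired analysis was possible because the files used hold comparisons, not libraries, and for the same reason no replicate could be left out. As deposited, the MED25 ratios run as control over knockdown, which reverses their sign, to 1.43 and 1.08 for DLL4 with MED25A and MED25B, 1.36 and 1.27 for HEY1, and 1.21 and 1.35 for BHLHE40. Ranked by score and not by ratio, DLL4 moved to numbers 442 and 255, BHLHE40 to 23 and 12, and HEY1 to 276 and 135 in the MED25 tables and to 125 with ETV4A. At a score of at least 50, DLL4 had no rank with MED25B, since its score there was 43.5. At a minimum of 3-fold, the tables kept 18, 15, 21 and 4 genes for MED25A, MED25B, ETV4A and ETV4B, and none of the 3 genes reached it. At an absolute log2 ratio of at least 1, the genes in any table numbered 1 for the Notch machinery, 1 for Notch targets, 3 for HES, HEY, BHLHE and ID genes, 1 for other bHLH factors, 2 for clock genes, 2 for hypoxia genes and 5 for vessel sprouting. A score of at least 50 left 2 hypoxia and 6 vessel-sprouting genes. Over all 169 recomputed values, 120 stayed within 1.5 times of the value given, 43 did not and 6 changed sign. The 120 include counts of 0 that stayed at 0, some of which could not move, so they overstate stability. The 6 are the MED25 ratios as deposited, and the missing rank of DLL4 was not counted. Protein-coding genes alone and older symbols moved none beyond 1.5 times. The tables carry no depth, so how far low expression limits DLL4 or HEY1 was not tested.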
